A study of Mus musculus with 7 samples.

Results

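The mitochondrial ribosomal protein genes are the 78 genes whose symbols begin with Mrpl or Mrps followed by a number and at most one letter. They were selected by symbol from a table of 53819 genes measured in mouse quadriceps. The symbol rule uses no measured value, although the family was picked with earlier results of these data known. Of these genes, 49 carry Mrpl symbols and 29 carry Mrps symbols, and all 78 had enough reads to be tested. The 7 RNA-seq libraries came from wild type male C57BL/6J mice, an inbred strain, that received a liver-directed adeno-associated virus of serotype 8 by tail vein injection of 200 µl at 8 weeks of age and were killed after 54 days. In 3 libraries the vector was AAV8-Alb-IGFBP1 (AAV8-IGFBP1), which carries IGFBP1, a secreted liver protein that binds insulin-like growth factors. In the other 4 libraries it was AAV8-Alb-Null (AAV8-Null), so every library, controls included, came from an animal given a vector. The species of the IGFBP1 sequence is not given in the labels, and the vector was aimed at the liver and not at the muscle that was sequenced. Whether the libraries stem from different mice is not stated in the labels, so the spread that p-values are set against may be technical.

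The mitochondrial ribosome is a separate ribosome inside mitochondria that makes the few respiratory chain and ATP synthase proteins encoded by mitochondrial DNA. Its RNA parts are transcribed from mitochondrial DNA, whereas all of its protein parts are encoded in the nucleus, made in the cytosol and imported. Skeletal muscle fibres use it to build the membrane complexes of oxidative metabolism, and slow oxidative fibres hold more mitochondria than fast glycolytic ones.

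By their place in the ribosome, 51 of the 78 genes encode proteins of the large subunit, which joins amino acids into a chain, and 26 encode proteins of the small subunit, which reads the mRNA. Mrps18a and Mrps30 are counted with the large subunit, where their proteins sit despite their names. Mrps36 is counted with neither, because its protein is now known as a component of the 2-oxoglutarate dehydrogenase complex of the citric acid cycle.

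Nuclear genes for mitochondrial proteins are known targets of GABP, an ETS-family factor also called nuclear respiratory factor 2, and of NRF1 and YY1. RefSeq promoter windows from 250 bases before to 50 bases after the transcription start (build GRCm38.p6) were matched by symbol for 69 of the 78 genes. The following 4 windows, from 150 bases before the start to 30 bases from it, are shown because they carry the letters that were more frequent in this family than in other genes. Capitals mark matches on either strand to the ETS core CCGGAAG in Mrpl58, to a relaxed NRF1 motif (GCGC, any 2 bases, GCGC) in Mrpl45, to the ETS core and the YY1 motif (AAGATGG followed directly by CGG) in Mrps18a, and to the ETS core and the relaxed NRF1 motif in Mrps21. They lie at chr11:115403602-115403781 on the + strand, chr11:97315566-97315745 on the + strand, chr17:46110854-46111033 on the + strand and chr3:95871485-95871664 on the - strand, in that order.
Mrpl58: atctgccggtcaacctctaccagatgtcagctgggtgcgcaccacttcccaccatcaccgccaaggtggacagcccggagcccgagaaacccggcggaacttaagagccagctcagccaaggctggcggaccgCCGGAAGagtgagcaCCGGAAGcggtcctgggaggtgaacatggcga
Mrpl45: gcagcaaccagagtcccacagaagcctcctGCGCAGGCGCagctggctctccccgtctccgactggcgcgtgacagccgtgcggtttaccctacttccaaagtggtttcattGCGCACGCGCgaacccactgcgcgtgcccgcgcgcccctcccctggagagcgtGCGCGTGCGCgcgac
Mrps18a: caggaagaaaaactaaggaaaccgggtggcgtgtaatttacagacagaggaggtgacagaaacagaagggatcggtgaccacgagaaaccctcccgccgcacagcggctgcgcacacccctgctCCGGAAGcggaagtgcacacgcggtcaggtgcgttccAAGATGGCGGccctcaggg
Mrps21: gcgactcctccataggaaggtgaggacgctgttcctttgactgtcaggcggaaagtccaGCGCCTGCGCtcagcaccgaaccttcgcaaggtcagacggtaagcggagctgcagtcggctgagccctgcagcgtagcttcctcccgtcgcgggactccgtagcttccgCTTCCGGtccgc
In Mrpl58 the ETS core began 17 and 2 bases before the start, and in Mrps18a it began 26 bases before the start, with the YY1 motif 12 bases after the start. The relaxed NRF1 motif began 120 and 38 bases before and 16 bases after the start of Mrpl45. In Mrps21 it began 91 bases before the start, and the ETS core, read on the other strand, 19 bases after it.

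A gene with several annotated starts was counted once if any window held the motif, and the 69 genes had 75 windows. The ETS core was found in 26 of the 69 genes, or 37.7%, against 12.9% of 17491 protein-coding genes and 9.93% of all 27025 genes in the promoter table. The relaxed NRF1 motif was found in 14 (20.3%), against 9.61% of protein-coding genes, and its stricter form with AT as the middle bases in 3 (4.35%), against 1.47%; these 3 genes were Mrpl9, Mrpl32 and Mrpl39. The YY1 motif was found in 5 (7.25%), against 1.41%, in Mrpl35, Mrpl37, Mrps11, Mrps18a and Mrps27. At least one of the ETS core, relaxed NRF1 and YY1 motifs was in 39 of the 69 genes (56.5%), against 21.5% of protein-coding genes. Other motifs were about as frequent in the family as elsewhere or rarer: the GC box GGGCGG was in 49.3% against 49.2%, the CCAAT box CCAAT in 39.1% against 42.3%, the E-box CACGTG in 7.25% against 8.91%, the TATA box TATAAA in 7.25% against 14.8%, and the estrogen-related receptor motif AAGGTCA in 5.80% against 4.73% of protein-coding genes. The letters of the motifs were chosen after the shares of several forms had been seen, the relaxed NRF1 motif contains its stricter form, and the family's windows were richer in G and C (median 58% against 56.3% in protein-coding genes) and in CG dinucleotides (median 21 against 13), which the ETS, NRF1 and YY1 motifs all contain. These matches are letters in a window and no binding was measured.

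**Figure D1:**
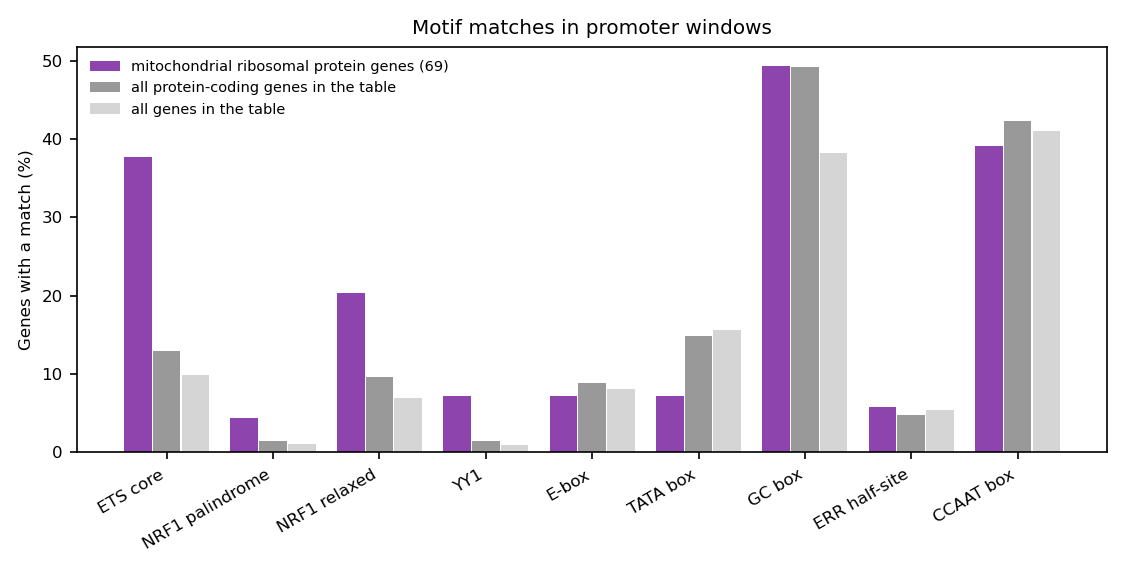
Share of genes (y axis, %) with at least one match to each motif (x axis) in the promoter window, for 69 mitochondrial ribosomal protein genes (purple), all protein-coding genes (dark grey) and all genes in the promoter table (light grey). The ETS core stands at 37.7% in the family and 12.9% in protein-coding genes, whereas the GC box stands at 49.3% and 49.2%.

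Library totals ranged from 38947453 to 51210360 estimated counts, and the lowest count of any family member in any library was 295. Levels are given as CPM, counts relative to the scaled library total and not to gene length, so levels of different genes are not compared. The mouse gene Igfbp1 had 202, 1425 and 142 counts in AAV8-IGFBP1 libraries, against 0, 0, 0 and 8 counts in AAV8-Null libraries. The muscle fibre genes Acta1, Ckm and Myh4 were at 16732 CPM or more in every library. Of 10 muscle fibre markers, 6 had log2 fold changes of AAV8-IGFBP1 over AAV8-Null above 0, up to 0.17 for Myh4. The other 4, Myh2, Myh1, Mb and Des, were below 0, at -0.66, -0.45, -0.35 and -0.08. A sum over 5 hepatocyte markers was at most 1.63 CPM in AAV8-IGFBP1 and 1.94 CPM in AAV8-Null libraries. Across 14935 genes tested, 87 (0.583%) differed between AAV8-IGFBP1 and AAV8-Null at an adjusted p under 0.05 by edgeR's quasi-likelihood test, 58 higher (0.388%) and 29 lower (0.194%). That total was 27, 30 and 49 without AAV8-IGFBP1 replicates 1, 2 and 3, and 14 and 44 without AAV8-Null replicates 1 and 3.

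None of the 78 mitochondrial ribosomal protein genes was among the 87. The lowest adjusted p of a member was 0.219 by edgeR, 0.165 by DESeq2 and 0.226 by limma-voom, and neither of the other tools called a member. At an unadjusted p under 0.05, edgeR had 6 members (7.69%, against 12.9% of all genes) and limma-voom had 7, against 12.7% of all genes. DESeq2 had 3, against 7.16% of 27237 genes. That base includes genes with few counts that edgeR's filter left out, so it is not like the members. The 6 members by edgeR were Mrpl14, Mrpl41, Mrpl45, Mrpl48, Mrpl51 and Mrps7, each with a lower mean in AAV8-IGFBP1, against 6.91% of all genes in that direction. The members' differences were small: log2 fold changes of AAV8-IGFBP1 over AAV8-Null lay between -0.27 for Mrpl14, which is 17.0% lower, and 0.15 for Mrps24, which is 11.2% higher. For 59 of the 78 genes the log2 fold change was smaller than 0.1 in size. In these bulk samples, fewer cells of a type and less RNA per cell cannot be told apart.

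The intervals show how large a difference the data leave room for. The 95% intervals of the members' log2 fold changes spanned -0.53 to 0.40, and 77 of the 78 lay wholly within 0.5 of 0, a 1.41-fold difference. A narrower band of 0.25, or 1.19-fold, held the whole interval of 46 members. The intervals of 6 members lay wholly below 0 before any adjustment and none lay wholly above. Members varied little among libraries of one group, with a median within-group SD of 0.0948 on the log2 CPM scale, against 0.169 over all genes and 0.103 over the 6517 other genes in the members' range of mean level, 8.48 to 178 CPM.

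**Figure D2:**
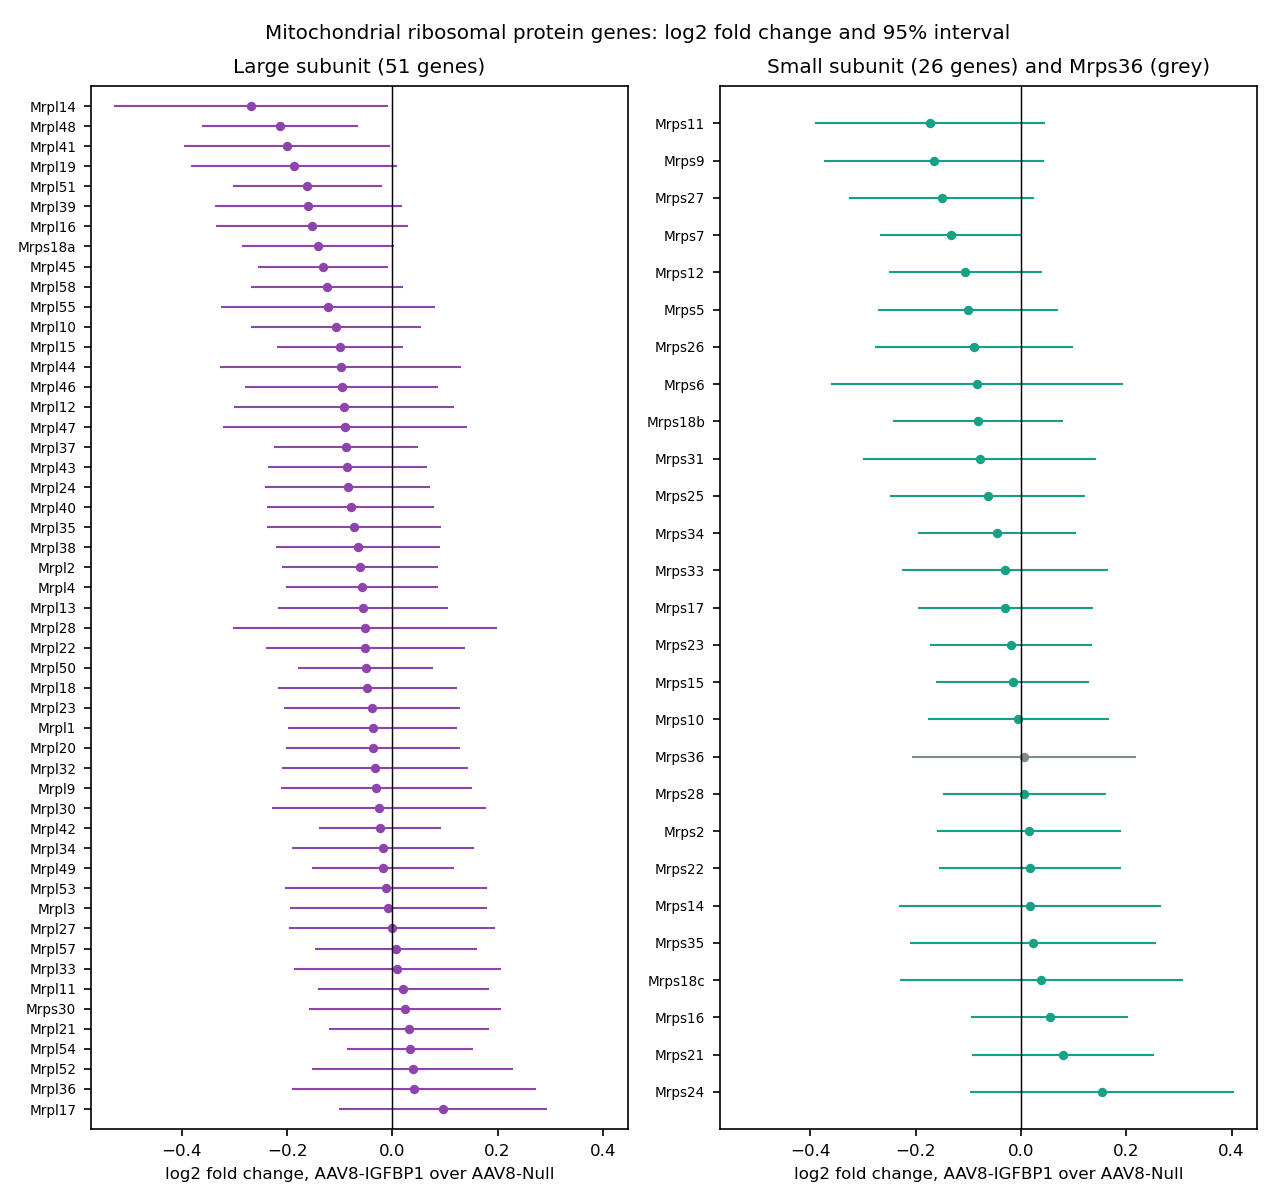
Log2 fold change of AAV8-IGFBP1 over AAV8-Null (x axis) with its 95% interval (line) for each gene, large subunit genes on the left, small subunit genes on the right and Mrps36 in grey. The points run from -0.27 for Mrpl14 to 0.15 for Mrps24, and the intervals of 6 genes lie wholly below 0.

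The members leaned to one side. Of the 78 log2 fold changes, 59 (75.6%) were below 0, against 50.1% of all genes tested, and 19 were above 0, against 49.9%. The median was -0.05, a level 3.48% lower in AAV8-IGFBP1, with quartiles of -0.10 and -0.0017; over all genes the median was -0.0010 and the quartiles -0.13 and 0.12. The number of members above 0 rested on single libraries: it was 12 without AAV8-IGFBP1 replicate 3, 12 without AAV8-Null replicate 3 and 29 without AAV8-Null replicate 1. Leaving out AAV8-IGFBP1 replicate 3 gave a median of -0.08, and leaving out AAV8-Null replicate 1 gave -0.03.

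Library by library, the family's levels overlapped between the groups. The summed level was 2232, 2223 and 2395 CPM in AAV8-IGFBP1 replicates 1 to 3, against 2463, 2333, 2286 and 2419 CPM in AAV8-Null replicates 1 to 4. AAV8-IGFBP1 replicates 1 and 2 were the lowest of the 7, whereas AAV8-IGFBP1 replicate 3 stood above AAV8-Null replicates 2 and 3. The members' median after centring each gene over the 7 libraries was -0.07, -0.07 and 0.04 on the log2 scale in AAV8-IGFBP1 replicates 1 to 3, against 0.08, 0.0006, -0.02 and 0.05 in AAV8-Null replicates 1 to 4. AAV8-IGFBP1 replicates 1, 2 and 3 held the lowest value of 25, 21 and 2 members, and AAV8-Null replicates 1 to 4 held the lowest of 0, 8, 18 and 4. The highest value lay in AAV8-IGFBP1 replicates 1, 2 and 3 for 2, 3 and 10 members and in AAV8-Null replicates 1 to 4 for 32, 8, 8 and 15. The family as a whole therefore stood lowest in the same pair of AAV8-IGFBP1 libraries and highest in AAV8-Null replicate 1.

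**Figure D3:**
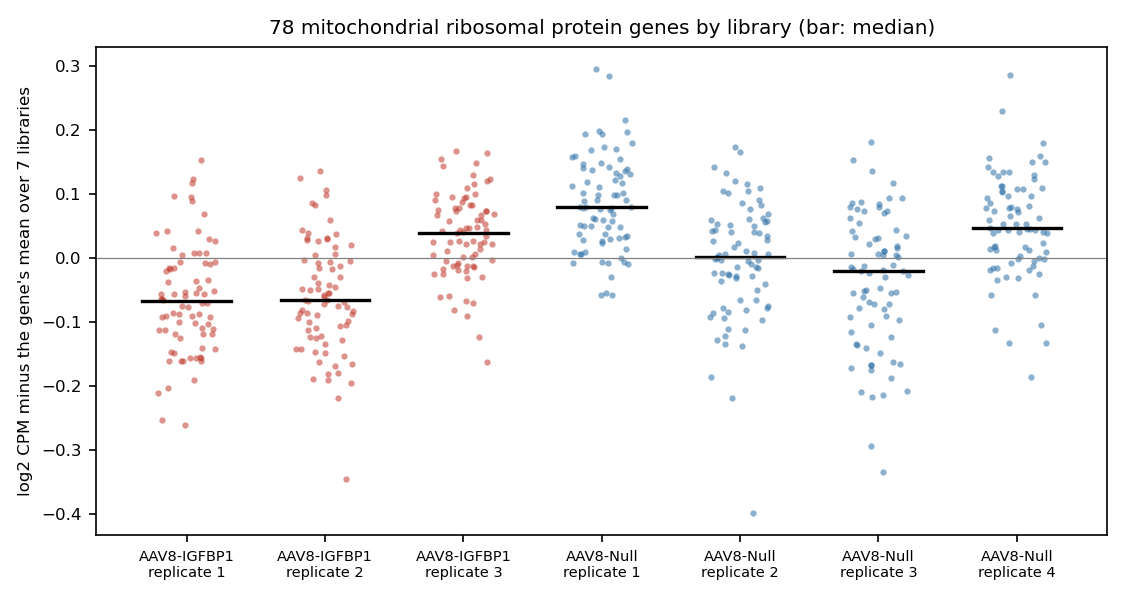
Log2 CPM of each of the 78 genes minus that gene's mean over the 7 libraries (y axis), one point per gene and one column per library, with the library's median as a bar. The medians are -0.07, -0.07 and 0.04 in AAV8-IGFBP1 and 0.08, 0.0006, -0.02 and 0.05 in AAV8-Null libraries.

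Other measures differed between these libraries too. The 13 slow fibre markers, contractile and calcium-handling genes of oxidative fibres, summed to 334, 607 and 990 CPM in AAV8-IGFBP1 replicates 1 to 3, against 2176, 724, 1382 and 1982 CPM in AAV8-Null replicates 1 to 4, and 12 of the 13 had log2 fold changes below 0. Myh7, the slow myosin heavy chain, was at 63.1, 181 and 327 CPM in AAV8-IGFBP1, against 746, 191, 480 and 677 CPM in AAV8-Null libraries. Genes of the mitochondrial DNA took 14.7%, 14.8% and 15.5% of counts in AAV8-IGFBP1 libraries, against 17.7%, 15.1%, 18.1% and 18.6% in AAV8-Null libraries. The 10 adipocyte markers summed to 2014 CPM in AAV8-IGFBP1 replicate 2, against 584 and 732 CPM in the other AAV8-IGFBP1 libraries and 456 to 723 CPM in AAV8-Null libraries. Brown adipocyte markers, 4 genes, summed to 20.5, 196 and 17.4 CPM in AAV8-IGFBP1 replicates 1 to 3, against 7.83 to 30.9 CPM in AAV8-Null libraries. The 4 smooth muscle markers summed to 26.9 to 34.5 CPM in AAV8-IGFBP1, against 51.5 to 80.5 CPM in AAV8-Null libraries, and the 5 Schwann cell markers to 30.3 to 35.3 CPM, against 36.7 to 54.2 CPM. Of all cell type markers only Tagln, of smooth muscle, passed the test (adjusted p = 0.00985 by edgeR). Sums overlapped between the groups for fibroblast markers, at 331 to 613 CPM in AAV8-IGFBP1, against 545 to 939 CPM in AAV8-Null libraries. Endothelial, macrophage and tendon markers overlapped too. Counts of Rn18s, the cytosolic small subunit rRNA, took 1.09%, 2.29% and 1.52% of the total in AAV8-IGFBP1 replicates 1 to 3, against 0.593%, 0.653%, 1.32% and 0.797% in AAV8-Null replicates 1 to 4. The part of these differences in the members' values was not tested.

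Among large subunit genes, 42 of 51 had log2 fold changes below 0, with a median of -0.06 and a range of -0.27 to 0.10. Of these, 30 were classed as having a bacterial counterpart, with 25 below 0 and a median of -0.05. The other 21 were classed as mitochondria-specific, with 17 below 0 and a median of -0.09. Mrpl48, whose protein lies in the central protuberance near the small subunit, had the lowest p of the family. Its level was 28.7, 28.0 and 31.5 CPM in AAV8-IGFBP1, against 35.2, 34.0, 32.1 and 35.1 CPM in AAV8-Null libraries. All AAV8-IGFBP1 libraries were below all AAV8-Null libraries, with AAV8-IGFBP1 replicate 3 next to AAV8-Null replicate 3. The means were 29.4 ± 1.85 CPM in AAV8-IGFBP1 (SD, n = 3) and 34.1 ± 1.43 CPM in AAV8-Null (SD, n = 4). The log2 fold change was -0.21 (SE 0.07, interval -0.36 to -0.07), with an edgeR adjusted p of 0.219 that ranged from 0.165 to 0.513 over the alternatives. Up to 8.58% of the exon bases of Mrpl48 overlap Rab6a on the opposite strand, so the gene may share reads with it.

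Groups without overlap were not common in the family. All libraries of one group lay beyond all of the other for 5 members (6.41%), against 12.3% of all genes, and in each the AAV8-IGFBP1 libraries were lower, against 6.01% of all genes in that direction and 6.33% in the other. Besides Mrpl48 these were Mrpl15, Mrpl45, Mrpl58 and Mrps7, none of which passed the adjusted test.

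Mrpl45, whose protein anchors the ribosome to the inner mitochondrial membrane at the exit of the new chain, was at 36.5, 36.3 and 38.8 CPM in AAV8-IGFBP1, against 41.3, 40.3, 40.1 and 41.4 CPM in AAV8-Null libraries. The AAV8-Null libraries lay close together, and the gap to the nearest AAV8-IGFBP1 library was smaller than the span of the AAV8-IGFBP1 libraries. The log2 fold change was -0.13 (SE 0.05, adjusted p = 0.354 by edgeR). Mrpl58, which encodes a peptidyl-tRNA hydrolase built into the large subunit that frees stalled chains, was at 15.7, 16.2 and 16 CPM in AAV8-IGFBP1, against 17.4, 16.5, 18.2 and 17.5 CPM in AAV8-Null libraries. AAV8-Null replicate 2 was close to the AAV8-IGFBP1 libraries, and the log2 fold change was -0.12 (SE 0.06, adjusted p = 0.466 by edgeR). Mrpl15, a core protein of the large subunit with a bacterial counterpart, was at 53.3, 52.4 and 54.6 CPM in AAV8-IGFBP1, against 59.2, 57.6, 55.1 and 57.1 CPM in AAV8-Null libraries. Its groups were nearly in contact at AAV8-IGFBP1 replicate 3 and AAV8-Null replicate 3, and its log2 fold change was -0.10 (SE 0.05, adjusted p = 0.476 by edgeR).

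**Figure D4:**
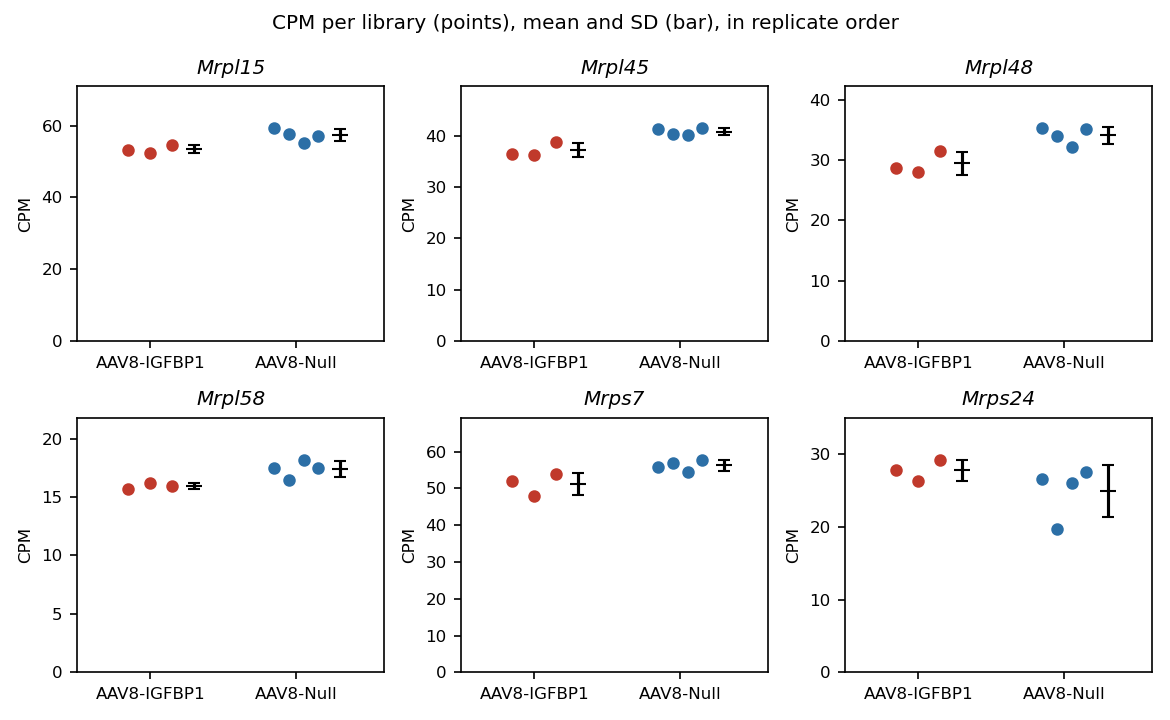
CPM (y axis, from 0) of 6 genes in each AAV8-IGFBP1 (red) and AAV8-Null (blue) library, in replicate order, with the mean and SD of each group as a bar. In Mrpl15, Mrpl45, Mrpl48, Mrpl58 and Mrps7 the red points lie below all blue points, whereas in Mrps24 AAV8-Null replicate 2 stands apart at 19.8 CPM.

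The largest difference in the family belonged to a gene whose libraries also varied most. Mrpl14, a conserved protein of the large subunit face that meets the small subunit, was at 24.6, 21.6 and 28.4 CPM in AAV8-IGFBP1, against 33.5, 28.0, 26 and 32.2 CPM in AAV8-Null libraries. AAV8-IGFBP1 replicate 3 was above AAV8-Null replicates 2 and 3, so the groups overlapped. The log2 fold change was -0.27 (SE 0.11, adjusted p = 0.373 by edgeR), and the within-group SD of 0.181 was the highest of the 78. Mrpl51, a mitochondria-specific large subunit protein, was at 99.6, 103 and 110 CPM in AAV8-IGFBP1, against 114, 122, 110 and 120 CPM in AAV8-Null libraries. AAV8-IGFBP1 replicate 3 and AAV8-Null replicate 3 were level, and the log2 fold change was -0.16 (SE 0.06, adjusted p = 0.331 by edgeR). Mrpl41, another mitochondria-specific protein of the large subunit, was at 10.1, 11.9 and 11.4 CPM in AAV8-IGFBP1, against 13.3, 11.8, 12.6 and 13.3 CPM in AAV8-Null libraries, with a log2 fold change of -0.20 (SE 0.09, adjusted p = 0.378 by edgeR). Its groups overlapped only at AAV8-IGFBP1 replicate 2 and AAV8-Null replicate 2. Mrps18a had a log2 fold change of -0.14 (adjusted p = 0.393 by edgeR) and Mrpl19 one of -0.19 (adjusted p = 0.410 by edgeR), and both had overlapping groups.

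Large subunit genes were also read by site. At the polypeptide exit and membrane contact, the 7 genes listed had log2 fold changes below 0, with a median of -0.09 and values from -0.16 for Mrpl39 to -0.04, and with -0.13 for Mrpl45 and -0.08 for Mrpl24. Mrpl17, which also lies near the exit tunnel but was not on that list, stood at 0.10. Of the 8 genes listed for the central protuberance, 7 were below 0, with a median of -0.07, led by Mrpl48 with Mrpl55 at -0.12 and Mrpl46 at -0.10. At the stalk that recruits translation factors, 3 of 5 were below 0 with a median of -0.01. Its lowest member was Mrpl10, the stalk base, at -0.11 (adjusted p = 0.585 by edgeR). Mrpl12, the stalk protein itself, was at 73.3, 68.5 and 84.8 CPM in AAV8-IGFBP1, against 90.6, 73.9, 77.1 and 80.4 CPM in AAV8-Null libraries. These groups overlapped broadly, with a log2 fold change of -0.09 and an interval of -0.30 to 0.12 (adjusted p = 0.735 by edgeR). These site counts describe 5 to 8 genes each and differences between sites were not tested.

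Among small subunit genes, 17 of 26 had log2 fold changes below 0, with a median of -0.03 and a range of -0.17 to 0.15. The 16 classed as having a bacterial counterpart divided 9 below and 7 above 0 with a median of -0.01. Those classed as mitochondria-specific, 10 genes, divided 8 below and 2 above with a median of -0.05. Mrps7, a head protein of the small subunit that helps to start its assembly in bacteria, was at 51.9, 48.0 and 53.8 CPM in AAV8-IGFBP1, against 55.9, 57.0, 54.4 and 57.7 CPM in AAV8-Null libraries. AAV8-IGFBP1 replicate 3 lay just under AAV8-Null replicate 3, and the log2 fold change was -0.13 (SE 0.06, interval ending at -0.0018, adjusted p = 0.383 by edgeR). In the annotation, 12.5% of the exon bases of Mrps7 overlap Gga3 and Mif4gd on the opposite strand, so its value is uncertain where strand was not used in counting. Along the decoding centre and mRNA path, 4 of 6 genes were below 0, with a median of -0.10: Mrps9, of the head, had a log2 fold change of -0.17 (adjusted p = 0.501 by edgeR) and Mrps12, of the decoding centre, one of -0.11 (adjusted p = 0.542 by edgeR).

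Higher levels in AAV8-IGFBP1 were led by a small subunit gene, Mrps24, whose protein lies where mRNA enters. It was at 27.8, 26.4 and 29.2 CPM in AAV8-IGFBP1, against 26.6, 19.8, 26.1 and 27.6 CPM in AAV8-Null libraries. Apart from the low AAV8-Null replicate 2 the groups overlapped, and the log2 fold change was 0.15 (SE 0.11, interval -0.10 to 0.40, adjusted p = 0.619 by edgeR); over the alternatives it ranged from 0.06, without AAV8-Null replicate 2, to 0.21. Mrpl17, of the large subunit, had a log2 fold change of 0.10 (adjusted p = 0.702 by edgeR) and Mrps21, of the small subunit, one of 0.08 (adjusted p = 0.717 by edgeR). The other 16 values above 0 were 0.055 or less, with Mrps16 at 0.055, Mrpl36 and Mrpl52 at 0.04, and Mrpl54 and Mrpl21 at 0.03. Those of Mrpl36, Mrpl52 and Mrpl21 turned negative when some single libraries were left out. Mrps36 was at 34.5, 29.4 and 35.5 CPM in AAV8-IGFBP1, against 37.7, 32.1, 30.0 and 32.2 CPM in AAV8-Null libraries, with a log2 fold change of 0.0054 that turned negative without any of 5 of the libraries, and an interval of -0.21 to 0.22 (adjusted p = 0.989 by edgeR).

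Members with and without the promoter letters were set side by side as a description. The 26 with an ETS core had a median log2 fold change of -0.02, with 17 below 0, and the 43 without had a median of -0.06, with 36 below 0. The 14 with a relaxed NRF1 motif had a median of -0.07, with 11 below 0, and the 55 without one a median of -0.05, with 42 below 0. The 5 with the YY1 motif were all below 0 with a median of -0.14, and the 64 without it had a median of -0.04, with 48 below 0. Differences between these sets were not tested.

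The other parts of mitochondrial translation were read from the same fit. Of 99 genes tested in 7 lists, edgeR and limma-voom called 0 and DESeq2 called 1, against 0.583% of all genes by edgeR and 2.85% by DESeq2. At an unadjusted p under 0.05 there were 14 of the 99 by edgeR, against 12.9% of all genes. There were 10 by DESeq2, against 7.16% of 27237 genes. That wider base includes genes with few counts, whereas all 99 passed edgeR's filter, so the DESeq2 shares are not alike. Groups did not overlap for 1 of 2 rRNAs, 1 of 13 mitochondrial DNA mRNAs (7.69%) and 2 of 15 translation factors (13.3%). The same held for 3 of 31 assembly and rRNA modification genes (9.68%) and 2 of 22 transcription and mRNA handling genes (9.09%). It held for 0 genes of the remaining lists, against 12.3% of all genes. The 5 ribosomal proteins with other symbols had log2 fold changes near 0, with a median of -0.03. Dap3, a GTP-binding protein of the small subunit, stood at -0.03, Ptcd3, an RNA-binding protein of the small subunit, at -0.09, and Chchd1 at -0.06, while Aurkaip1 stood at 0.07, all of the small subunit. Gadd45gip1, of the large subunit, stood at -0.03. Without AAV8-Null replicate 4, Dap3 and Gadd45gip1 were above 0. Their edgeR adjusted p ran from 0.691 to 0.942, and the 5 summed to 186, 185 and 197 CPM in AAV8-IGFBP1, against 201, 188, 184 and 205 CPM in AAV8-Null libraries.

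The ribosome's RNA parts had lower values in AAV8-IGFBP1 and larger differences than its proteins. mt-Rnr2, the rRNA of the large subunit, was at 2724, 2207 and 2674 CPM in AAV8-IGFBP1, against 3546, 3324, 4543 and 2817 CPM in AAV8-Null libraries. AAV8-Null replicate 3 was the highest, and AAV8-Null replicate 4 was close to the AAV8-IGFBP1 libraries without overlap. The log2 fold change was -0.49 (SE 0.16, interval -0.85 to -0.13). Its edgeR adjusted p was 0.254, and DESeq2 gave 0.0353, the lowest of a range that reached 0.534 over the alternatives. mt-Rnr1, the rRNA of the small subunit, was at 1136, 1129 and 1302 CPM in AAV8-IGFBP1, against 1510, 1487, 2389 and 1127 CPM in AAV8-Null libraries. These groups overlapped through AAV8-Null replicate 4, with a log2 fold change of -0.45 (SE 0.24, adjusted p = 0.497 by edgeR). The libraries were made with an mRNA kit, so rRNA is read only as far as that kit keeps it.

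The proteins that this ribosome makes were lower on average at the RNA level without passing the test. All 13 mRNAs of the mitochondrial DNA had log2 fold changes below 0, with a median of -0.20 and a range of -0.29 to -0.06, against -0.0010 over all genes. They lie on the same genome and 12 of them share a long transcript, with mt-Nd6 on the other strand, so they are not 13 separate observations. mt-Co2, a cytochrome c oxidase subunit, was at 5314, 5406 and 5729 CPM in AAV8-IGFBP1, against 6517, 5717, 7226 and 7301 CPM in AAV8-Null libraries, with AAV8-IGFBP1 replicate 3 just above AAV8-Null replicate 2 (log2 fold change -0.29, adjusted p = 0.266 by edgeR). mt-Nd1, a complex I subunit, was at 15083, 15465 and 16185 CPM in AAV8-IGFBP1, against 18206, 16332, 19488 and 20997 CPM in AAV8-Null libraries, and the groups did not overlap (log2 fold change -0.27, adjusted p = 0.303 by edgeR).

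Among 15 translation factors, 13 had log2 fold changes below 0, with a median of -0.09. Tufm, the elongation factor that brings aminoacyl-tRNA to the mitochondrial ribosome, was at 82.4, 82.9 and 89.5 CPM in AAV8-IGFBP1, against 98, 90.3, 90.0 and 98.5 CPM in AAV8-Null libraries. The groups did not overlap, though AAV8-IGFBP1 replicate 3 was next to AAV8-Null replicates 2 and 3 (log2 fold change -0.15, SE 0.06, adjusted p = 0.356 by edgeR). Mtfmt, which formylates the initiator methionyl-tRNA, was also without overlap, at 3.67 to 4.34 CPM in AAV8-IGFBP1, against 4.37 to 4.95 CPM in AAV8-Null libraries (log2 fold change -0.28, adjusted p = 0.358 by edgeR). Among 31 assembly and rRNA modification genes, 19 were below 0 and 12 above, with a median of -0.01. Gtpbp10, a GTPase of large subunit assembly, was at 11.6, 11.4 and 10.5 CPM in AAV8-IGFBP1, against 9.52, 10.1, 9.42 and 9.93 CPM in AAV8-Null libraries, higher without overlap (log2 fold change 0.19, adjusted p = 0.331 by edgeR). Rpusd3 and Trmt2b, which modify mitochondrial RNA, both had log2 fold changes of -0.25 without overlap (adjusted p = 0.353 and 0.339 by edgeR).

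Of 22 transcription and mRNA handling genes, 13 were below 0 with a median of -0.03. Polrmt, the mitochondrial RNA polymerase, was at 26.4, 25.4 and 27.4 CPM in AAV8-IGFBP1, against 23.9, 23.1, 22.8 and 24.4 CPM in AAV8-Null libraries. It was higher without overlap, with a log2 fold change of 0.16 (SE 0.06, adjusted p = 0.297 by edgeR). Mterf1b, a copy of the mitochondrial transcription terminator gene, had 10, 7 and 7 counts in AAV8-IGFBP1, against 18, 17, 13 and 15 counts in AAV8-Null libraries, lower without overlap. Its log2 fold change of -0.93 (SE 0.34, adjusted p = 0.305 by edgeR) was the list's largest in size, at few counts and with reads that could be split with the similar Mterf1a. Hsd17b10, a subunit of mitochondrial RNase P, stood at -0.13 and Elac2, which trims tRNA ends, at 0.10. Of 12 regulators of mitochondrial biogenesis, 4 were below 0 and 8 above, with a median of 0.03. Ppargc1a, the coactivator PGC-1α, was at 29.3, 32.1 and 32.3 CPM in AAV8-IGFBP1, against 38.0, 31.6, 57.3 and 41.6 CPM in AAV8-Null libraries. AAV8-Null replicate 2 lay among the AAV8-IGFBP1 libraries and AAV8-Null replicate 3 stood far above the rest (log2 fold change -0.43, SE 0.19, adjusted p = 0.400 by edgeR). Esrra, a nuclear receptor that works with PGC-1α, had a log2 fold change of -0.15 (adjusted p = 0.585 by edgeR), Ppargc1b one of 0.14 (adjusted p = 0.715 by edgeR) and Tfam, which packages and transcribes mitochondrial DNA, one of 0.09 (adjusted p = 0.691 by edgeR).

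**Figure D5:**
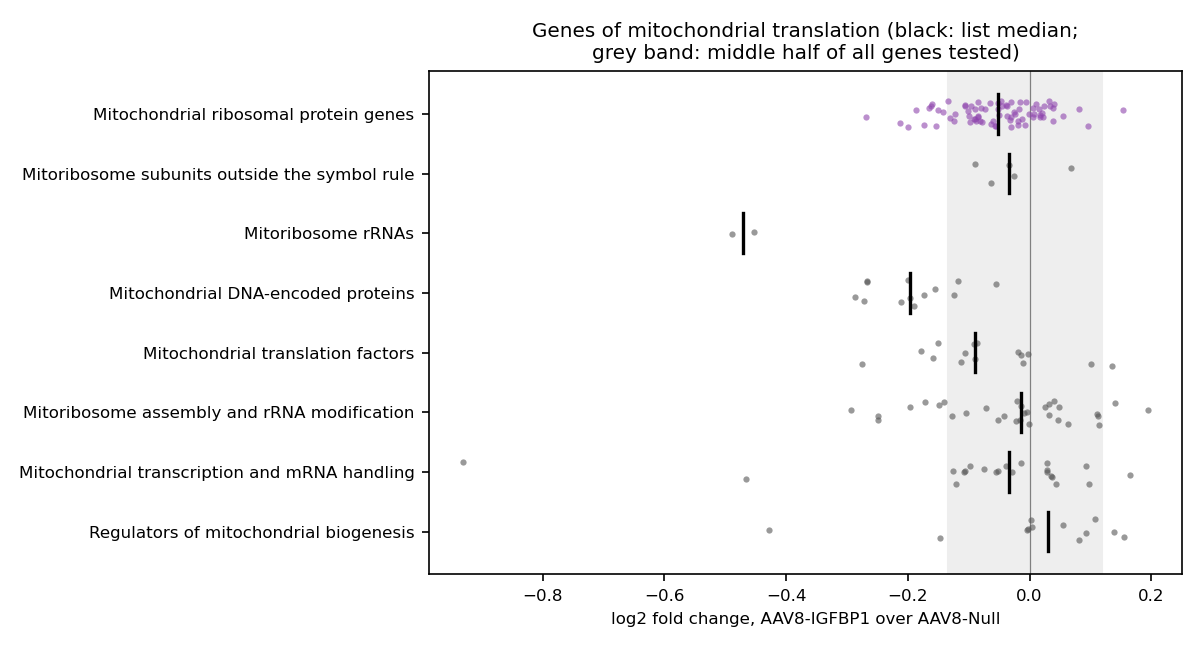
Log2 fold change of AAV8-IGFBP1 over AAV8-Null (x axis) for the 78 mitochondrial ribosomal protein genes (purple) and 7 lists of related genes (grey), one point per gene, with list medians as black bars and a band between the quartiles of all genes tested, -0.13 and 0.12. The family's median is -0.05, the rRNAs lie at -0.49 and -0.45, and the 13 mRNAs of mitochondrial DNA have a median of -0.20.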

How the data were processed

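RNA-seq of quadriceps was available for 3 AAV8-IGFBP1 and 4 AAV8-Null libraries, grouped by the treatment in the labels. Values are estimated counts for each gene symbol, not always whole, in a single table that the authors deposited. The submitters' processing notes name Salmon 1.10.1, STAR 2.7.9a, R 4.2.2, Trim Galore 0.6.7 and cutadapt 3.4, without saying what each did, and the build GRCm39. Strand setting and annotation release are not given in the sources used here. Genes with overlapping exons, and genes with pseudogene copies, could therefore share reads. RNA was prepared with an mRNA-Seq kit, per the labels' protocols.

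Counts were rounded to whole numbers. The main test was edgeR 4.0.16 in R 4.3.3: filterByExpr (minimum count 10, minimum total 15), TMM scaling, glmQLFit with robust fitting in its newer form and glmQLFTest with group as the single term. Benjamini-Hochberg adjustment ran over 14935 genes, and genes passed below 0.05. Adjusted p-values come from this fit unless another tool is named. Standard errors were derived from each log2 fold change and its F statistic. The 95% intervals used the total degrees of freedom of the fit, residual ones plus those borrowed across genes. Log2 CPM used a prior count of 2. The steps were also run on simulated counts with changes larger than any seen in a member. That run therefore does not show whether changes of the members' size would be called. A count of 0 allows up to 3 counts, which covers counting error only.

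Members and gene lists were chosen with earlier results of these data known, so their counts are descriptions and were given no test as sets. Named members are those whose groups did not overlap, the 8 with the lowest p in each direction, single libraries far from their group, Mrps36, and up to 3 per ribosomal site. Of each related list, genes with the lowest p are named. Members named for a motif, an overlap or a neighbouring gene were picked after their values were seen. Within-group pairs of libraries differed by 20.4 to 54.6 chi-square per degree of freedom, so none was taken for a library deposited a second time, which does not show that they come from different mice. GENCODE M21 and RefSeq tables, both of GRCm38, served only for neighbours, overlaps and promoter sequences, because the counts are of another build; per-length levels were not computed. Mtrfr, on the list of translation factors, had no row and was not analysed here.

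Alternatives were DESeq2 size factors, upper-quartile scaling, library scaling that leaves out mitochondrial DNA genes and the 10 genes with most counts, the DESeq2 1.42.0 and limma 3.58.1 (voom) tests, no filter and a stricter one (1 CPM in 3 libraries), a replicate block, a threshold of 0.1 and each library left out.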

Additional observations from a re-analysis of the deposited data

Results flagged for a closer look

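In 4 of the 78 mitochondrial ribosomal protein genes, 1 AAV8-Null library lay far from the other 3 libraries of its group by Dixon's criterion at the 95% level. Chance alone marks about 1 group in 20. Mrpl43, a mitochondria-specific large subunit protein, was at 28.7 CPM in AAV8-Null replicate 2, while the remaining 3 AAV8-Null libraries lay at 32 to 32.5 CPM. Mrpl39, a large subunit protein near the exit tunnel, was at 17.1 CPM in that library too, against 18.7 to 19.1 CPM in the others. Mrpl4, a large subunit protein with a bacterial counterpart, was at 37.4 CPM in AAV8-Null replicate 1, against 33.3 to 34.0 CPM in the others. Mrpl42 was at 183 CPM in AAV8-Null replicate 3, against 178 CPM in each of the others. The AAV8-IGFBP1 group, with 3 libraries, was not examined in this way.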

How the results depend on the processing

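No member passed the test under any alternative run, and the members' median log2 fold change stayed between -0.08 and -0.03. Over all genes, 433 passed with DESeq2, 157 without a filter, 212 at a threshold of 0.1 and 14 to 79 when single libraries were left out, and the cause of these differences was not tested. Of the genes in related lists 1, mt-Rnr2, passed with DESeq2 and 0 otherwise. Members above 0 numbered 12 to 29 when single libraries were left out. All 21 named members below 0 stayed below 0 under every alternative. They were named largely for a low p or for groups without overlap, which favours a stable direction. Members not named were not followed singly. Some of them changed direction, since the count above 0 was 19 in the main fit and reached 29.

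Direction was followed gene by gene only for the 57 named genes. Among these, leaving out single libraries turned the direction of 6 genes whose log2 fold changes were close to 0. The values ran from -0.019 to 0.085 for Mrpl21, from -0.014 to 0.092 for Mrpl52, from -0.019 to 0.13 for Mrpl36, from -0.047 to 0.085 for Mrps36, from -0.079 to 0.024 for Dap3 and from -0.089 to 0.034 for Gadd45gip1.

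Replicate numbers gave no sign of pairing the samples: deviations of same-numbered libraries correlated at -0.0984, 0.0682 and -0.0574. Each AAV8-IGFBP1 library correlated best with an AAV8-Null library of another number, though for replicate 2 that best value was only 0.0722. Correlations this weak cannot exclude a pairing. With the replicate number as a block, 4 genes of the whole table and 0 members passed, and the block moved the log2 fold change to -0.017 for Mrpl52, -0.0045 for Mrps36, 0.024 for Dap3 and 0.038 for Gadd45gip1. Every member had at least 295 counts in each library, and the number of libraries, 3 against 4, limits what can be called.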

Other observations

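Many mitochondrial ribosomal protein genes begin close to another gene. In the GENCODE M21 annotation, 18 of the 78 genes (23.1%) had a protein-coding neighbour starting within 1000 bases on the opposite strand and pointing away, against 6.79% of 21938 protein-coding genes. Starts were taken as the outermost end of each gene, and pairs whose ends cross were not counted, so some pairs may be missed. Mrps12 starts 172 bases from Sars2, the mitochondrial seryl-tRNA synthetase, Mrpl51 starts 100 bases from Ncapd2, a condensin subunit, and Mrpl10 starts 153 bases from Lrrc46. Exons of 26 members overlapped another gene, in 22 of them on the opposite strand, and the overlap was over 10% of exon bases in 16. Among these were Mrpl19 with Gcfc2 (39.2%), Mrpl24 with Rrnad1 (38.2%) and Mrpl43 with Twnk, the mitochondrial DNA helicase (27.5%).

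The table also held 6 pseudogene rows that the symbol rule leaves out. Mrpl23-ps1 had 75 to 85 counts in AAV8-IGFBP1 and 67 to 115 counts in AAV8-Null libraries. Mrpl48-ps had 4 to 8 counts in AAV8-IGFBP1 and 8 to 14 counts in AAV8-Null libraries, far below the counts of Mrpl48. Mrpl27-ps and the 3 pseudogenes of Mrps36 had at most 11 counts in any library.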
